A study of Mus musculus with 9 samples.

Results

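The constitutive proteasome genes were taken as every gene whose symbol begins with Psma, Psmb, Psmc or Psmd followed by a digit, without the inducible subunits Psmb8, Psmb9 and Psmb10. The rule found 37 of the 19937 genes measured, each read from the 1 probe set with a single symbol and the highest mean over the arrays. Of these, 36 encode proteasome subunits or assembly chaperones of the regulatory particle: 8 of the alpha ring, 8 of the beta ring, 6 Rpt ATPases, 11 Rpn subunits of the lid and base, and 3 base assembly chaperones. The remaining member, Psmc3ip, carries a proteasome-like symbol but encodes the meiotic recombination factor Hop2, which is no part of the proteasome, so it was counted apart.

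Total RNA came from a murine leukaemia cell line of genotype MLL-AF9/NrasG12D on the B6/SJL(CD45.2) background, grown in RPMI1640 with serum and carrying the LMN vector, an MSCV virus. At day 5 there were 3 arrays of each of 3 groups: cells with the Rluc hairpin, which targets Renilla luciferase and served as the control, cells with Eed shRNA and cells with Suz12 shRNA. All groups therefore share the fusion, the Nras allele, the vector and the culture, and differ in the knockdown. Eed and Suz12 are core subunits of Polycomb repressive complex 2 (PRC2), which methylates histone H3, and the comparison asks how their loss changes the transcriptome of this leukaemia. All values come from 1 cell line. Whether replicate arrays stand for separate transductions is not stated in the labels, so each p-value reflects only how far these arrays differ from one another, which may be technical spread.

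The proteasome degrades proteins tagged with ubiquitin. Its barrel-shaped core particle is built from outer alpha rings, which gate the entry, and inner beta rings, whose subunits Psmb5, Psmb6 and Psmb7 carry the proteolytic sites. A regulatory particle caps the core: its Rpt ATPases unfold substrates, and its Rpn subunits bind and remove ubiquitin. In immune cells Psmb8, Psmb9 and Psmb10 can replace the 3 catalytic subunits, and when the proteasome is inhibited the transcription factor encoded by Nfe2l1 raises the constitutive genes together.

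RefSeq start regions (build GRCm38.p6) were available for 29 of the 36 subunit and chaperone genes, as 31 windows, and for Psmc3ip. Psma8, Psmb1, Psmb2, Psmb7, Psmc3, Psmd3 and Psmd7 had no entry. Shown here are the 100 bases before the transcription start of 2 catalytic subunits, of the called members described below that had an entry, and of Psmc3ip. They read 5′ to 3′ along the gene's own strand. Capitals mark matches, on either strand, to the antioxidant response core TGANNNNGC that Nfe2l1 and Nfe2l2 are known to use, the CCAAT box, the ETS core CCGGAAG and the E box CACGTG.
Psmb5, chymotrypsin-like site, chr14:54617996-54618095, minus strand: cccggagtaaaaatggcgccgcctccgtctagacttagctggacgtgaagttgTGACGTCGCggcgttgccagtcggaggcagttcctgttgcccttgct
Psmb6, caspase-like site, chr11:70525257-70525356, plus strand: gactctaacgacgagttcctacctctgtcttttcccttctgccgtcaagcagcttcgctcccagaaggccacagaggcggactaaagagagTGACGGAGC
Psmb3, beta ring, chr11:97703334-97703433, plus strand: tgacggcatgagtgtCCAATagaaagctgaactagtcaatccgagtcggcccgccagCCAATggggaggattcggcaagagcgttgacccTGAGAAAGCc
Psmd9, base chaperone, chr5:123228090-123228189, plus strand: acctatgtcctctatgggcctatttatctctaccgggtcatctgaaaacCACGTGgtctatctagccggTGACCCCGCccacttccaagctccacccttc
Psmd10, base chaperone, chrX:140956712-140956811, minus strand: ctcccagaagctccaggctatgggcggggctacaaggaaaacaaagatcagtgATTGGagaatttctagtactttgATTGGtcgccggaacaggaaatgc
Psmc3ip, recombination factor, chr11:101095436-101095535, minus strand: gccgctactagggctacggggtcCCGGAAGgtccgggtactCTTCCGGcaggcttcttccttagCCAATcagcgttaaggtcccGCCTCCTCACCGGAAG

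The antioxidant response core began 47 bases before the start of Psmb5, 9 before that of Psmb6, 10 before that of Psmb3 and 31 before that of Psmd9. In Psmc3ip its match on the reverse strand lies directly before the last of 3 ETS cores, without sharing a base. Over the whole windows, which run from 250 bases before to 50 bases after the start, TGANNNNGC was found in 58.1% of the 31 windows of subunits and chaperones and in 41.3% of all 32851 windows of the table. The ETS core CCGGAAG was found in 35.5% against 8.86%, and the core of the nuclear respiratory factor site in 19.4% against 4.6%. The CCAAT box (38.7% against 37.4%) and the E box CACGTG (6.45% against 7.15%) were at shares close to those of all windows. The member windows had a median GC content of 56.7%, against 52.7% for all windows. These matches describe letters in the windows, not binding.

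The deposited values are log2 intensities, and each change below is a difference of mean log2 values on that scale. Calls rest on a limma fit and on p-values adjusted by Benjamini-Hochberg over all 19937 genes, with a threshold of 0.05. Array medians lay between 6.86 and 6.95. The knockdowns were visible in their targets: Eed fell by 1.75 on the log2 scale under its shRNA, and Suz12 fell by 1.98 under its own. To set a background guide, a choice made with the values in view, 1027 olfactory receptor genes were ranked by their mean in the control arrays, and the 95th percentile was 6.32. All 10 markers of myeloid leukaemia cells lay above it, while the mean of 4 measured B cell markers was 5.81 to 5.96 and that of 5 T cell markers 5.84 to 5.93 over all arrays. Of these lists, 1 of 4 B cell markers (Cd79b) and 2 of 5 T cell markers (Cd3e and Cd8a) lay above the guide, while Cd79a, Ms4a1 and Pax5 lay below it, and none was called in either knockdown. Of the fibroblast markers, 4 of 5 lay above the guide. The fibroblast list mean was 7.51 to 7.63 in the control arrays, 7.72 to 7.82 with Eed shRNA and 7.73 to 7.81 with Suz12 shRNA. Pdgfrb rose by 0.66 and 0.63, whereas Col1a1, Col1a2, Col3a1 and Pdgfra were not called in either knockdown. Both erythroid markers measured, Klf1 and Epor, lay above it, with a list mean of 6.93 to 7.13 over all arrays, and Epor rose by 0.22 with Eed shRNA. Of the myeloid leukaemia markers, Cebpa, Mpo and Elane were called lower in both knockdowns. Ptprc, Itgam, Spi1, Fcgr3, Cd33 and Lyz2 were called higher in both, and Csf3r was called in neither. The mean of this list was 11.71 to 11.72 in the control arrays, 11.89 to 11.94 with Eed shRNA and 11.87 to 11.94 with Suz12 shRNA. The mean of 10 measured markers of maturing myeloid cells was 8.35 to 8.45 in the control arrays, 9.61 to 9.67 with Eed shRNA and 9.91 to 9.98 with Suz12 shRNA. The shifts in both myeloid lists, and in the fibroblast list, where only Pdgfrb was called, move with every change between knockdown and control given here. Their part in these changes was not tested. In RNA from whole cultures, fewer cells of a type and less RNA per cell cannot be told apart.

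Most constitutive proteasome genes lay well above background and were not called in either knockdown. Of the 37 members, 35 lay above the background guide. The mean over all members was 11.32 ± 0.0067 (SD, n = 3) in the control arrays, 11.27 ± 0.013 (SD, n = 3) with Eed shRNA and 11.28 ± 0.038 (SD, n = 3) with Suz12 shRNA. None of the 36 subunits and chaperones changed by 0.2 or more on the log2 scale in either knockdown. In the mean of both knockdowns against the control they ran from −0.13 for Psmd9 to 0.11 for Psmd10. Taken gene by gene, without adjustment for the number of genes, the 95% intervals of these 36 changes lay between −0.24 and 0.19, that is, from 1.18-fold lower to 1.14-fold higher.

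**Figure D1:**
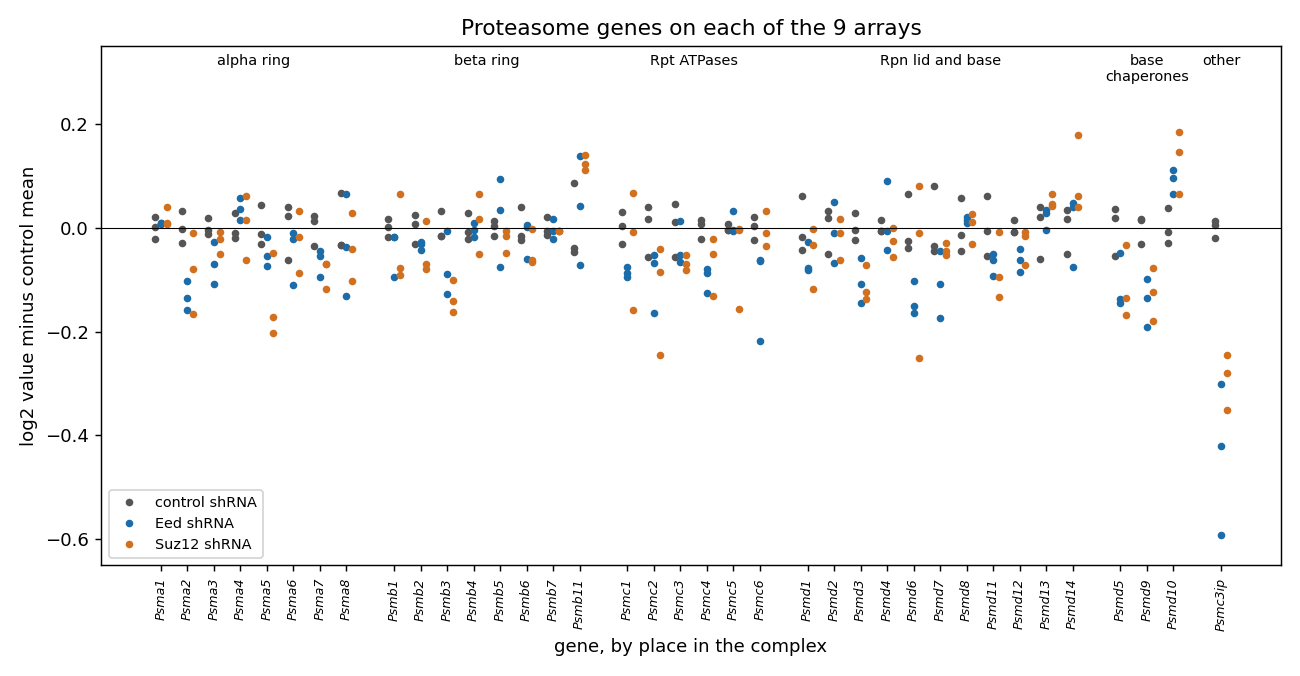
The log2 value of each array minus the control mean (vertical axis) for each of the 37 members (horizontal axis, by place in the complex), with 1 point per array, grey for control, blue for Eed and orange for Suz12 shRNA. The 3 groups of points lie close together for the subunits, and all 6 knockdown arrays of Psmc3ip lie well below its controls.

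With Eed shRNA, 0 of 37 members were called higher and 2 were called lower, Psmc3ip and Psmd9. Of all genes, 8.78% were called higher and 13.1% lower, 21.8% in either direction. With Suz12 shRNA, again 0 of 37 were called higher and 2 lower, Psmc3ip and Psmb3, where 8.25% of all genes were called higher and 12.9% lower, 21.2% in all. In the mean of both knockdowns, 1 of 37 was called higher (Psmd10) and 3 lower (Psmc3ip, Psmd3 and Psmd9), against 9.73% and 15.4% of all genes. The called share of the members was thus 5.41% with each shRNA and 10.8% in the mean contrast, where it was 25.2% over all genes. Among the 4708 genes with a mean of at least 10, a limit set after the data were seen, 45.4% were called in the mean contrast. Of the members, 8 had an unadjusted p under 0.05 with Eed shRNA, 8 with Suz12 shRNA and 10 in the mean contrast. A gene called after adjustment also passes without it, so at least 21.8%, 21.2% and 25.2% of all genes did so. These are lower bounds, so the counts of members without adjustment cannot be ranked against all genes by them.

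Few members passed a threshold of size. Of the 37, 1, Psmc3ip, changed by at least 0.2 on the log2 scale, whereas 19.3% of all genes did so with Eed shRNA, 18.4% with Suz12 shRNA and 18.5% in the mean contrast. Among the genes with a mean of at least 10 the shares were 29.9%, 26.7% and 28.1%. The members were also measured closely: their median SD within a group was 0.049, against 0.068 over all genes and 0.053 over genes with a mean of at least 10.

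The median change of the members was −0.048 with Eed shRNA, −0.039 with Suz12 shRNA and −0.048 in the mean contrast. Over all genes the medians were −0.0068, −0.017 and −0.010. Over the genes with a mean of at least 10 they were −0.048, −0.049 and −0.049, close to those of the members. A change below 0 was found for 27 of 37 members with Eed shRNA and 29 of 37 with Suz12 shRNA, and for 29 in the mean contrast, where 53%, 57.7% and 55.7% of all genes had one. This small downward shift depended on the scaling. In the mean contrast the members' median was −0.081 after centring each array on its median, −0.020 after quantile normalization and −0.00028 after cyclic loess, which turned the median with Suz12 shRNA to 0.0046. Without Suz12 replicate 3, in which 13 of 37 members had their lowest value, the median change with Suz12 shRNA was −0.015, against −0.011 over all genes.

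**Figure D2:**
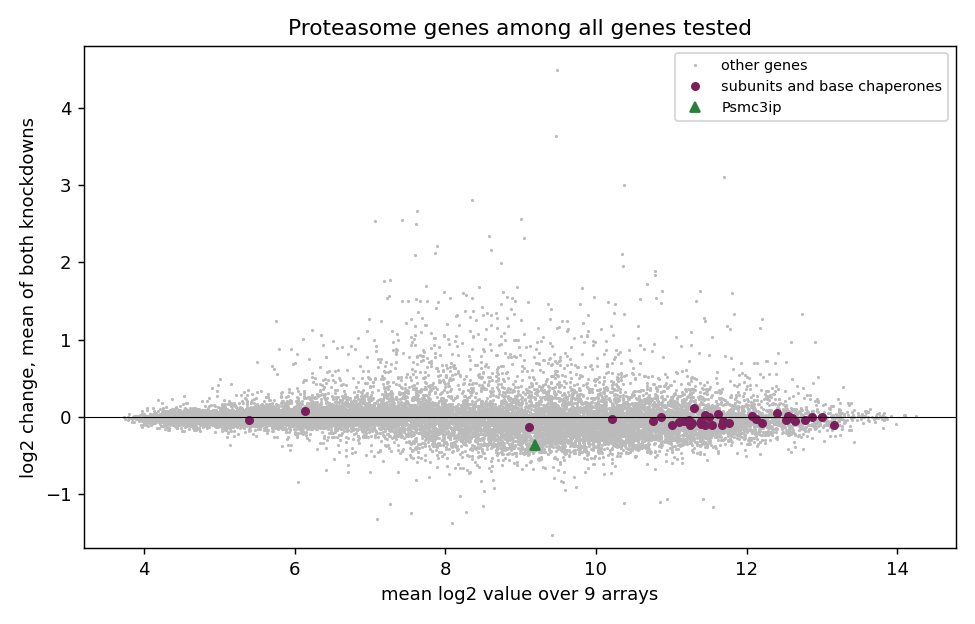
Change in the mean of both knockdowns against the control (vertical axis, log2) against mean level over 9 arrays (horizontal axis, log2 intensity) for all 19937 genes (grey), with the 36 subunits and base chaperones (purple points) and Psmc3ip (green triangle). The purple points lie within 0.2 of the line at 0, and Psmc3ip lies below it.

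In the alpha ring, which gates the core, 0 of 8 genes were called in any comparison of the reported fit. Their median change was −0.048 with Eed shRNA and −0.033 with Suz12 shRNA. Psma2 read 11.52, 11.49 and 11.55 in the control arrays, 11.36, 11.39 and 11.42 with Eed shRNA, and 11.51, 11.44 and 11.35 with Suz12 shRNA. Its Eed arrays all lay below the controls and 1 Suz12 array overlapped them. The mean contrast was −0.11 with an adjusted p of 0.0752.

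Psma7 read 11.31, 11.31 and 11.26 in the controls, 11.25, 11.24 and 11.20 with Eed shRNA, and 11.22, 11.22 and 11.18 with Suz12 shRNA. All 6 knockdown arrays lay below all controls, by a mean of −0.075 (SE 0.032, adjusted p 0.132). Psma5 read 11.45, 11.43 and 11.51 in the controls, 11.45, 11.41 and 11.39 with Eed shRNA, and 11.41, 11.29 and 11.26 with Suz12 shRNA. Here the Suz12 arrays were separate from the controls and the Eed arrays were not, yet the test of Suz12 against Eed shRNA gave −0.092 with an adjusted p of 0.854.

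The other widely expressed alpha genes had mean contrasts of 0.013 (Psma1), −0.048 (Psma3), 0.020 (Psma4) and −0.036 (Psma6). Psma8 is the alpha subunit of the testis. It read 5.39, 5.39 and 5.49 in the controls, 5.49, 5.38 and 5.29 with Eed shRNA, and 5.38, 5.45 and 5.32 with Suz12 shRNA, below the background guide on every array.

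None of the 3 catalytic subunits of the beta ring was called in any comparison. Psmb5, with the chymotrypsin-like site that bortezomib binds, read 12.99, 13.02 and 13.01 in the control arrays, 13.04, 12.93 and 13.10 with Eed shRNA, and 12.99, 12.96 and 13.00 with Suz12 shRNA. The groups overlapped fully, and the mean contrast was −0.0033, with a 95% interval from −0.093 to 0.086. Psmb6, with the caspase-like site, read 12.12, 12.18 and 12.13 in the controls, 12.14, 12.08 and 12.15 with Eed shRNA, and 12.14, 12.08 and 12.08 with Suz12 shRNA. Its interval ran from −0.11 to 0.045 around −0.031. Psmb7, with the trypsin-like site, read 11.49, 11.52 and 11.49 in the controls, 11.52, 11.49 and 11.48 with Eed shRNA, and 11.49 on all 3 Suz12 arrays. Those 3 arrays, control replicate 1 and Eed replicate 2 all read 11.494, so the SD with Suz12 shRNA was 0. The interval of Psmb7 ran from −0.071 to 0.060 around −0.0053. Changes within these intervals could not be told from none, so the test does not show that the groups were equal.

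Among the structural beta subunits, 1 gene was called in 1 comparison. Psmb3 read 13.21, 13.26 and 13.21 in the controls, 13.14, 13.10 and 13.22 with Eed shRNA, and 13.06, 13.12 and 13.08 with Suz12 shRNA. The Suz12 arrays lay below every control and 1 Eed array reached them. Psmb3 fell by 0.14 on the log2 scale with Suz12 shRNA (SE 0.043, 1.10-fold, adjusted p 0.0472), and had a change of −0.074 with Eed shRNA (adjusted p 0.295). With 1 array left out at a time the Suz12 call was kept only without Eed replicate 2 or Eed replicate 3, and its adjusted p ran from 0.0338 to 0.134.

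Psmb2 read 12.77, 12.81 and 12.83 in the controls, 12.77, 12.76 and 12.78 with Eed shRNA, and 12.82, 12.73 and 12.72 with Suz12 shRNA, with overlapping groups and a mean contrast of −0.040. Psmb1 and Psmb4 had mean contrasts of −0.039 and 0.0028. Psmb11, the thymus-specific catalytic subunit of cortical epithelium, read 6.03, 6.16 and 6.04 in the controls, 6.21, 6.01 and 6.12 with Eed shRNA, and 6.19, 6.22 and 6.20 with Suz12 shRNA, all below the background guide.

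The 6 Rpt ATPases form the ring that unfolds substrates. None was called in any comparison of the reported fit, and their median change was −0.090 with Eed shRNA and −0.061 with Suz12 shRNA. All 6 had a change below 0 with Suz12 shRNA, and 5 of 6 with Eed shRNA. Psmc4 read 12.27, 12.26 and 12.24 in the controls, 12.13, 12.17 and 12.18 with Eed shRNA, and 12.23, 12.21 and 12.13 with Suz12 shRNA. All 6 knockdown arrays lay below the controls, with a mean contrast of −0.083 (SE 0.035, adjusted p 0.123).

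Psmc2 read 11.10, 11.02 and 11.12 in the controls, 11.01, 10.92 and 11.03 with Eed shRNA, and 11.04, 11.00 and 10.84 with Suz12 shRNA. Psmc3 read 10.84, 10.80 and 10.74 in the controls, 10.74, 10.73 and 10.81 with Eed shRNA, and 10.72, 10.74 and 10.71 with Suz12 shRNA. In both genes at least 1 knockdown array overlapped the controls, and the mean contrasts were −0.11 and −0.052. Psmc1, Psmc5 and Psmc6 had mean contrasts of −0.060, −0.023 and −0.060. Psmc6 was the 1 member with an unadjusted p under 0.05 between the knockdowns, with a difference of 0.11, Suz12 minus Eed shRNA, whose adjusted p in limma was 0.816.

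Of the 11 Rpn genes of the lid and base, 0 were called in either knockdown alone and 1, Psmd3, was called in the mean contrast. Psmd3, a structural subunit of the lid, read 11.30, 11.35 and 11.32 in the controls, 11.18, 11.21 and 11.26 with Eed shRNA, and 11.20, 11.19 and 11.25 with Suz12 shRNA. All 6 knockdown arrays lay below the controls. Psmd3 fell by 0.11 on the log2 scale in the mean contrast (SE 0.034, 1.08-fold, adjusted p 0.0443), with changes of −0.10 and −0.11 in the single knockdowns (adjusted p 0.098 and 0.0791). With 1 array left out, the call was kept only without Eed replicate 3 or Suz12 replicate 3, and the adjusted p ran from 0.0332 to 0.142.

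Psmd11, another lid subunit, read 11.27, 11.32 and 11.39 in the controls, 11.28, 11.23 and 11.27 with Eed shRNA, and 11.23, 11.20 and 11.32 with Suz12 shRNA. Psmd7, the partner of the deubiquitinase in the lid, read 11.77, 11.78 and 11.89 in the controls, 11.77, 11.70 and 11.64 with Eed shRNA, and 11.78, 11.76 and 11.77 with Suz12 shRNA. Neither was separated over all arrays, and their mean contrasts were −0.074 and −0.076. The deubiquitinase itself, Psmd14, had changes of 0.0041 with Eed shRNA and 0.093 with Suz12 shRNA (adjusted p 0.274). The ubiquitin receptor Psmd4 had a mean contrast of −0.0071, and the large scaffold subunits Psmd1 and Psmd2 had −0.057 and −0.014. The lid genes Psmd6, Psmd8, Psmd12 and Psmd13 had −0.10, 0.0083, −0.048 and 0.036.

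The base assembly chaperones, which hold ATPase pairs until the ring closes, moved in opposite directions in the mean contrast, where Psmd9 fell and Psmd10 rose. Psmd9 read 9.17, 9.22 and 9.22 in the control arrays, 9.01, 9.07 and 9.10 with Eed shRNA, and 9.08, 9.12 and 9.02 with Suz12 shRNA, so that every knockdown array lay below every control. Psmd9 fell by 0.14 on the log2 scale with Eed shRNA (SE 0.043, 1.10-fold, adjusted p 0.0372) and by 0.13 in the mean contrast (SE 0.037, adjusted p 0.0211), while the change of −0.13 with Suz12 shRNA had an adjusted p of 0.0599. The Eed call was lost without any 1 of the control arrays, without Eed replicate 1 or 2, or without Suz12 replicate 1, with adjusted p-values between 0.0363 and 0.139 over the 9 fits. The call in the mean contrast was lost without control replicate 2 or 3, where the adjusted p reached 0.0741.

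Psmd10, also known as gankyrin, which binds the ATPase Psmc4 and is known as an oncoprotein in liver, read 11.27, 11.22 and 11.20 in the controls, 11.34, 11.30 and 11.33 with Eed shRNA, and 11.42, 11.38 and 11.30 with Suz12 shRNA. All 6 knockdown arrays lay above all controls. Psmd10 rose by 0.11 in the mean contrast (SE 0.037, 1.08-fold, adjusted p 0.0493), with changes of 0.091 and 0.13 in the single knockdowns (adjusted p 0.182 and 0.0506). With 1 array left out at a time, the call in the mean contrast was kept only without Suz12 replicate 3, and its adjusted p ran from 0.0254 to 0.160. Psmd5, the remaining base chaperone, read 11.79, 11.70 and 11.77 in the controls, 11.70, 11.61 and 11.60 with Eed shRNA, and 11.72, 11.58 and 11.61 with Suz12 shRNA. Its groups overlapped, with a mean contrast of −0.11 (adjusted p 0.0889).

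**Figure D3:**
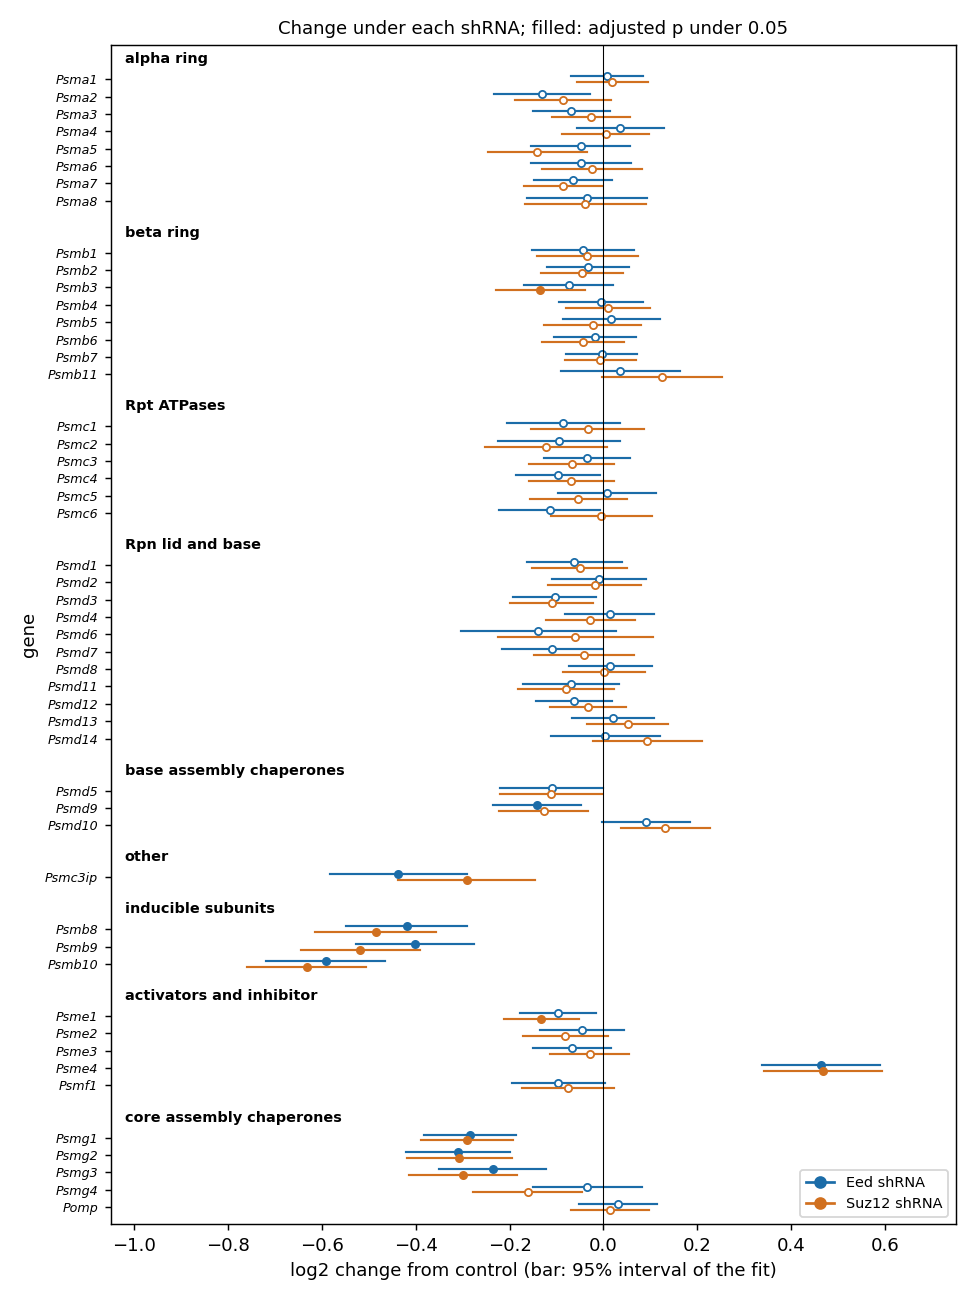
Change from the control (horizontal axis, log2; bars are unadjusted 95% intervals of the limma fit) for each member and for the inducible subunits, activators, inhibitor and core assembly chaperones (vertical axis), with Eed shRNA in blue and Suz12 shRNA in orange, filled where called. The intervals of the 36 subunits and chaperones lie between −0.30 and 0.25, and Psmc3ip lies farther from 0 than any of them.

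Psmc3ip, which helps the strand-exchange proteins of meiosis pair homologous DNA, had the largest change of the 37 genes. It read 9.42, 9.45 and 9.44 in the control arrays, 8.85, 9.02 and 9.14 with Eed shRNA, and 9.19, 9.16 and 9.09 with Suz12 shRNA. The control arrays had an SD of 0.017, and every knockdown array was lower than all of them. Psmc3ip fell by 0.44 with Eed shRNA (SE 0.066, 1.35-fold, adjusted p 0.000898) and by 0.29 with Suz12 shRNA (1.22-fold, adjusted p 0.0095). The difference between the knockdowns, 0.15, had an adjusted p of 0.819. The call was kept in both knockdowns without any 1 array, with an adjusted p of at most 0.0429.

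Arrays that did not overlap were counted over all members. With Eed shRNA, 11 of 37 members had all 3 arrays below all controls and 1 had all 3 above, where 19.4% and 12.9% of all genes did. With Suz12 shRNA the counts were 8 and 4, against 19.9% and 11.9%. Over all 6 knockdown arrays, 6 members lay below all controls (Psma7, Psmc3ip, Psmc4, Psmd3, Psmd9 and Psmd12) and 1 above (Psmd10), against 15.7% and 9.85% of all genes. Both comparisons share the control arrays. For Psmd12 the separation was close to a tie, since control replicate 2 and Suz12 replicate 1 both read 11.4202. Its mean contrast was −0.048, with an adjusted p of 0.362 in limma.

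Between the knockdowns, 0 of 37 members were called by limma at an adjusted p under 0.05, where 0.176% of all genes were called. Without adjustment 1 member, Psmc6, had a limma p under 0.05, and 0.176% is only a lower bound for all genes there. The members' differences, Suz12 minus Eed shRNA, ran from −0.092 for Psma5 to 0.15 for Psmc3ip. Their unadjusted 95% intervals lay between −0.20 and 0.29, with 3 arrays a group.

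The members varied together over the arrays to unequal degrees. Pearson's r of a member with the mean of the other members over the 9 arrays, which share groups and scaling, was highest for Psma2 at 0.94 and Psmd12 at 0.93. It was below 0 for Psmd10 at −0.34, Psmb11 at −0.28, Psmd8 at −0.26 and Psmd13 at −0.24, and 0.057 for Psmb5. Outside the list, the genes most like the members' mean by the same measure were Phf5a (r 0.97), Ddx47 (0.96), Vma21 (0.96), Riok2 (0.96) and Armc1 (0.96), chosen as the top 5 of all genes.

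For 5 members the array had more than 1 probe set with that symbol, and the sets differed somewhat. Psma3 had 3, with mean contrasts of −0.048 in the set used and 0.000073 and −0.18 in the others. The set at −0.18 had a change of −0.21 with Eed shRNA (limma adjusted p 0.131 over all probe sets). The second sets of Psma5, Psmb3, Psmc1 and Psmd2 gave −0.045, −0.082, −0.070 and −0.012, against −0.095, −0.10, −0.060 and −0.014 in those used. None of these 11 probe sets was called when each was tested on its own. Of the 37 members, 5 had the same value on at least 3 arrays, compared at 10 significant digits, against 30.9% of all genes.

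Other genes of the same pathway were called in both knockdowns. The inducible catalytic subunits Psmb8, Psmb9 and Psmb10 were all called lower in both knockdowns, by −0.42, −0.40 and −0.59 with Eed shRNA and −0.49, −0.52 and −0.63 with Suz12 shRNA. Of all genes, 13.1% were called lower with Eed shRNA and 12.9% with Suz12 shRNA. Psmb10 read 10.41, 10.42 and 10.31 in the controls, 9.78, 9.71 and 9.88 with Eed shRNA, and 9.82, 9.67 and 9.76 with Suz12 shRNA, with no overlap, whereas the groups of Psmb7, whose place it takes, overlapped. The difference between the changes of inducible and constitutive subunits was not tested.

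Of the 5 chaperones that assemble the core particle, 3 were called lower in both knockdowns and 0 higher. The shares of all genes called lower were 13.1% with Eed shRNA and 12.9% with Suz12 shRNA. Psmg1, which guides alpha ring assembly as a pair with Psmg2, read 11.21, 11.25 and 11.19 in the controls, 11.00, 10.85 and 10.96 with Eed shRNA, and 10.92, 10.94 and 10.92 with Suz12 shRNA. Every knockdown array lay below the controls, and Psmg1 fell by 0.28 with Eed shRNA (SE 0.044, adjusted p 0.00111) and by 0.29 with Suz12 shRNA (adjusted p 0.00103). Psmg2 fell by 0.31 in each, and Psmg3, a further alpha ring chaperone, by 0.24 and 0.30. Psmg4, the partner of Psmg3, had changes of −0.035 and −0.16 (adjusted p 0.748 and 0.0522). Pomp, which matures the beta ring, had 0.031 and 0.013. None of the 8 alpha genes, whose products these chaperones assemble, was called beside them in the reported fit. Under some alternatives Psma2 was called lower with Eed shRNA and Psma5 with Suz12 shRNA.

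Among 5 genes for activators and an inhibitor of the core, 1 was called higher in each knockdown, and 0 and 1 were called lower with Eed and Suz12 shRNA. The shares of all genes called in either direction were 21.8% and 21.2%. Psme4, which encodes the nuclear activator PA200, read 10.68, 10.65 and 10.83 in the controls, 11.21, 11.23 and 11.11 with Eed shRNA, and 11.19, 11.13 and 11.24 with Suz12 shRNA. The groups did not overlap, and Psme4 rose by 0.46 and 0.47 (SE 0.056, 1.38-fold in each, adjusted p 0.000248 and 0.000253). Psme1, a subunit of the interferon-inducible activator, fell by 0.13 with Suz12 shRNA (adjusted p 0.0248) and had a change of −0.097 with Eed shRNA (adjusted p 0.0898). Its call was lost without control replicate 1 or Suz12 replicate 1 or 3 (adjusted p up to 0.0849). Psme2, its partner, Psme3 and the inhibitor Psmf1 had changes between −0.096 and −0.030 and were not called.

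**Figure D4:**
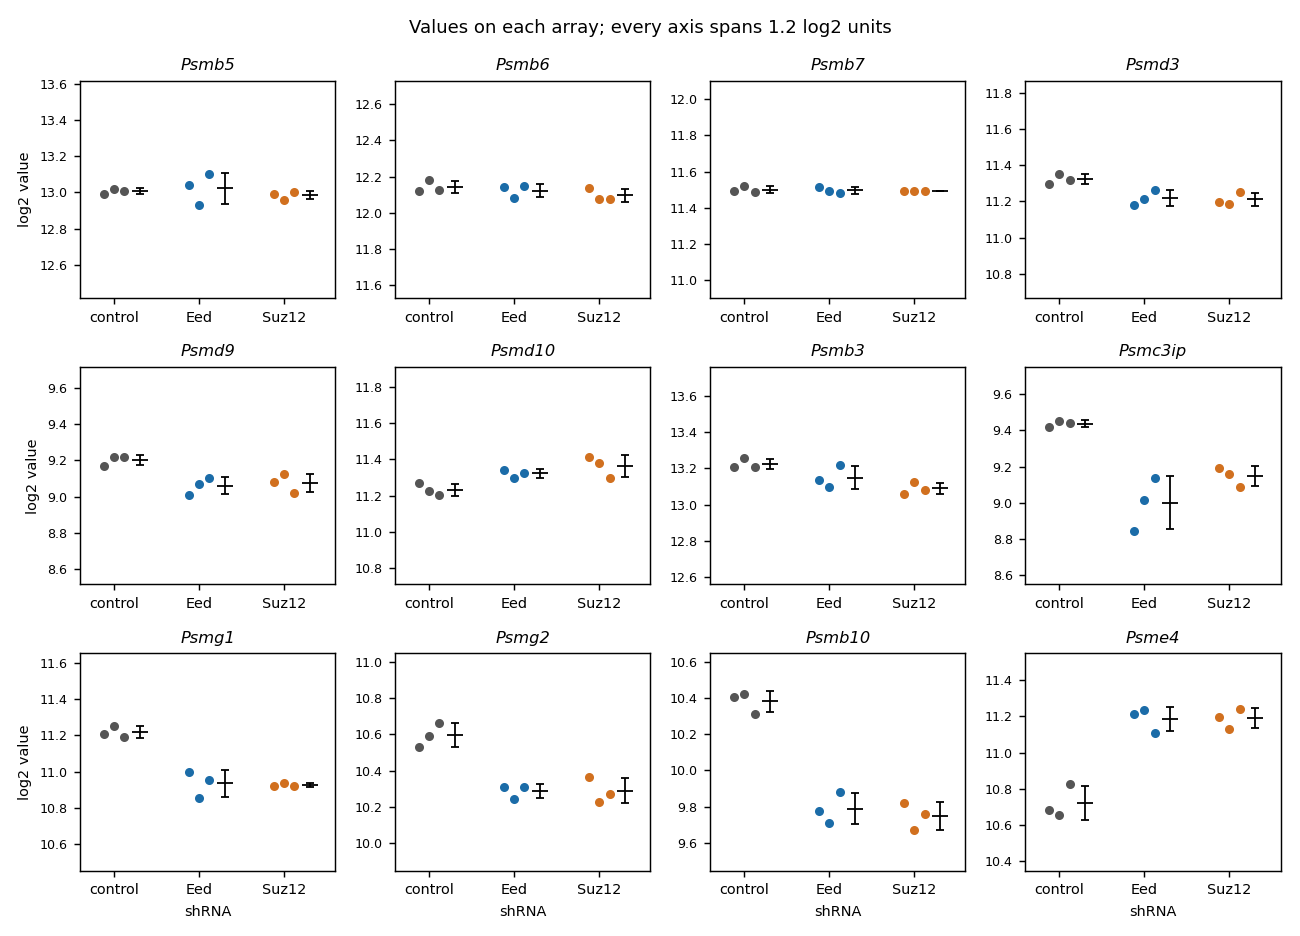
Values of selected genes on each array (vertical axis, log2; horizontal axis, shRNA), with 1 point per array and a bar for the group mean ± SD (n = 3). The catalytic subunits Psmb5, Psmb6 and Psmb7 overlap between groups, whereas Psmc3ip, Psmg1, Psmg2 and Psmb10 lie lower and Psme4 lies higher in all 6 knockdown arrays.

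Of 8 measured proteasome-associated genes, 1 was called higher and 2 lower with Eed shRNA, and 0 higher and 2 lower with Suz12 shRNA, where 21.8% and 21.2% of all genes were called in either direction. The ubiquitin ligase Ube3c fell by 0.25 and 0.21, and the deubiquitinase Uchl5 fell by 0.17 with Eed shRNA. Txnl1, a redox protein bound to the lid, fell by 0.19 with Suz12 shRNA. Zfand5, an activator of the proteasome in muscle wasting, rose by 0.15 with Eed shRNA. Several of these calls depended on which arrays were fitted. With 1 array left out at a time, the Ube3c call with Suz12 shRNA was lost without control replicate 3 or Suz12 replicate 2 (adjusted p up to 0.0533), and the Uchl5 call without control replicate 1 or 3 or Eed replicate 1 or 3 (up to 0.0709). Txnl1 was no longer called once control replicate 2 or 3, or Suz12 replicate 2 or 3, was left out (up to 0.0974). The Zfand5 call was kept only without control replicate 1, Eed replicate 3 or Suz12 replicate 2, with an adjusted p of up to 0.134. Usp14, the other deubiquitinase of the complex, had changes of −0.0063 and 0.015.

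Of 8 measured genes that control proteasome transcription, 2 were called higher and 1 lower with Eed shRNA, and 1 higher and 0 lower with Suz12 shRNA, beside the same shares of all genes, 21.8% and 21.2%. Nfe2l1, the activator of the constitutive genes, had changes of −0.0015 and −0.019, and Nfe2l2 of −0.078 and −0.031. Bach1, a repressor at antioxidant response elements, rose by 0.27 and 0.24 (adjusted p 0.00493 and 0.00908). Keap1, which marks the Nfe2l2 protein for degradation, fell by 0.21 with Eed shRNA, and the small Maf gene Maff rose by 0.19 with Eed shRNA. The Keap1 call was lost without control replicate 1 or Eed replicate 1 or 2 (adjusted p up to 0.0918), and the Maff call without control replicate 1 or 2 or Eed replicate 1 or 2 (up to 0.104).

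Of 6 measured genes for ubiquitin and its early enzymes, 1 was called lower, Ube2d1, at −0.19 with Eed shRNA, and 0 with Suz12 shRNA. Of 11 measured shuttles and segregase genes, 1 was called higher and 1 lower in each knockdown. For both lists the shares of all genes called were again 21.8% and 21.2%. Sqstm1, the autophagy receptor for ubiquitin, rose by 0.28 in each, and the shuttle Ubqln4 fell by 0.36 and 0.40. Vcp, the segregase, had changes of 0.053 and 0.058. As another large complex of housekeeping genes, 57 cytosolic ribosomal protein genes had 0 called higher in either knockdown, 3 called lower with Eed shRNA and 2 with Suz12 shRNA, with median changes of 0.011 and −0.022. Beside these stood 8.78% and 8.25% of all genes called higher, and 13.1% and 12.9% called lower.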

How the data were processed

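The authors deposited log2 values obtained by RMA (robust multi-array average), per the submitters' processing notes. Its version and the array annotation behind it: not given in the sources used here. RMA gives no detection call, low values were kept, and scanner images were not used here. Of 34760 probe sets, 22961 were in the platform's gene table, 21640 with 1 symbol (used) and 1321 with several; 11799 were unnamed here. The probe set with the highest mean stood for each of 954 genes with more than 1, giving 19937 genes.

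The 9 arrays entered 1 linear model with group means, in limma 3.58.1 (lmFit, then eBayes, under R 4.3.3), with 6 residual and 4.11 prior degrees of freedom and two-sided p-values adjusted by Benjamini-Hochberg over all genes. The script was tested on simulated data. The number of arrays limits the precision. Alternatives changed the scaling, the filter, the choice of probe set, the variance model, the arrays fitted and the size of change. Groups carry no batch label.

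The members, the lists and the tests were chosen with earlier results of these data known. Values on every array are given for Psmb5, Psmb6, Psmb7, Psma8, Psmb11, Psmc3ip and up to 3 genes per subcomplex with the smallest p in the mean contrast. Up to 4 genes per other pathway list were picked by the same p. Of these, Mafk, Ube2k, Uba3, Uba6, Rad23b and Nsfl1c were called in neither knockdown and were not described. Usp14, Nfe2l1, Nfe2l2, Vcp, Psmg4 and Pomp were named for their role. Array values of Psmb10, Psmg1 and Psme4 were added after their values were seen. RefSeq start regions were searched on both strands.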

Additional observations from a re-analysis of the deposited data

How the results depend on the processing

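The share of the 37 members that was called stayed below that of all genes under every alternative. It was highest in the mean contrast with an intensity trend in eBayes, at 18.9% against 26.0% of all genes. With Eed shRNA it was highest after centring each array on its median, at 13.5% against 23.5%. With Suz12 shRNA it was highest with the trend, at 13.5% against 22.1%. With Eed shRNA, 2 were called as reported, 1 after quantile normalization, 5 after centring each array on its median, and 1 with each probe set tested on its own. With Suz12 shRNA, 2 were called as reported, 4 after centring, 5 with an intensity trend in eBayes, and 1 each with the mean of a gene's probe sets or with each probe set on its own. In the mean contrast, 4 were called as reported, 2 after quantile normalization or cyclic loess, 7 with the trend, and 2 with each probe set on its own. Asking for a change of at least 0.2 left 1 in each, Psmc3ip. Leaving out each array in turn gave 1 to 3 with Eed shRNA, 1 to 2 with Suz12 shRNA, 1 to 5 in the mean contrast and 0 to 0 between the knockdowns, which had 0 under every alternative run. Scaling moved the share of all calls that were higher from 40.2% to 29.4% (centring) and 50.6% (loess) with Eed shRNA, and from 38.9% to 32.5% and 52.5% with Suz12 shRNA; the cause was not tested. None of the 36 subunits and chaperones reached 0.2 under any of these settings, and the largest change was 0.19. A Psma3 probe set that was not used reached −0.21 with Eed shRNA, and no setting took it alone. Beside Psmc3ip, which was called in all 18 alternatives with each shRNA, the calls were less stable: Psmb3 with Suz12 shRNA was called in 6 of 18 alternatives, Psmd9 with Eed shRNA in 7 of 18, and in the mean contrast Psmd9 in 13, Psmd3 in 6 and Psmd10 in 6 of 17. Some alternatives called members that the reported fit did not. Psma2 was called lower with Eed shRNA after centring, with the trend, with the compared groups alone and without Suz12 replicate 3. It stayed uncalled in 14 of 18 alternatives. Psma5 was called lower with Suz12 shRNA with the trend and without Suz12 replicate 1. In the mean contrast Psma7 was called lower after centring, Psmc4 with the trend and Psmd5 without Suz12 replicate 1. Over 144 gene results, 2362 of 2541 values kept their side of the threshold, 129 lost a call and 50 gained one. In 45 values of 21 results the sign turned; none of these was called either way, and the changes reported for them were at most 0.052. Of other pathway genes, Maff and Zfand5 with Eed shRNA were called in 9 of 18 alternatives each, Keap1 in 11 and Uchl5 in 13, and with Suz12 shRNA Txnl1 in 11, Psme1 in 12 and Ube3c in 16 of 18. The share of all genes changed by at least 0.2 in the mean contrast was 28.1% among genes with a mean of at least 10, chosen after seeing the data.

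Sample numbers in the titles were not used as pairs: same-numbered arrays deviated with r between −0.17 and 0.20 (2 of 9 pairs over 0.1). For differently numbered arrays of different groups r lay between −0.33 and 0.27 (5 of 18 pairs over 0.1). With the replicate block, 1 member was called with Eed shRNA, 1 with Suz12 shRNA, 2 in the mean contrast and 0 between the knockdowns. The mean contrast cannot be fitted from the arrays of 1 pair of groups, so that alternative was not run for it. Both dim members, Psma8 and Psmb11, lay under the background guide.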
